A study of Danio rerio with 14 samples.

Results

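Chromatin accessibility was measured by ATAC-seq at 6012 nuclear peaks in injured zebrafish hearts, in 3 libraries of wound-border cardiomyocytes with the dominant-negative protein A-Fos and in 3 without it. These peaks are all nuclear peaks of the A-Fos table with a mean value of at least 10 over its 6 libraries, out of 6338 nuclear peaks in that table and 22949 peaks in both tables of the series, and 6 of the 14 libraries of the series are concerned. The 326 nuclear peaks left out had means of up to 9.83, and the lowest mean kept was 10.0. The A-Fos(+) and A-Fos(-) samples came from adult male and female fish aged 4 to 12 months, 4 days after cryoinjury, a freezing injury of the ventricle. A-Fos(+) fish were injected into the abdomen with 4-hydroxytamoxifen (0.5 mg/mL), which switched on the transgene, and A-Fos(-) fish with the ethanol vehicle. Each library pooled 6 hearts, from which cardiomyocytes were enriched on a density gradient and not by sorting, and 5000 cells were taken per reaction. The labels name the line only as CM:A-Fos and give neither its promoter nor the share of cells in which A-Fos was made. No fish without the transgene received the drug in these libraries, so an effect of A-Fos and one of 4-hydroxytamoxifen cannot be told apart. The labels also do not say whether the pools came from separate clutches or days, so each p-value reflects only how these samples vary.

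AP-1 is a family of dimeric transcription factors that bind DNA through basic leucine zippers. Jun proteins pair with each other or with Fos proteins, and ATF and Maf proteins are further zipper partners. AP-1 is switched on within minutes of stress or wounding, binds mostly at enhancers away from promoters, and is known for opening chromatin there together with other factors. A-Fos is a Fos zipper whose DNA-binding basic region was replaced by an acidic stretch, so that its dimers with Jun proteins are held off DNA. The comparison therefore asks whether accessibility at 4 days after injury differs when AP-1 is blocked in cardiomyocytes.

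Values are the authors' normalized values per peak, background-corrected reads divided by size factors and rounded. The A-Fos(+) libraries held 567853, 307244 and 129387 nuclear reads in peaks, estimated from the spacing of their values, and the A-Fos(-) libraries 810835, 521902 and 233653 (replicates 1, 2 and 3). Replicate 3 was therefore the shallowest library of either group, and 73 tested peaks were at 0 in A-Fos(+) replicate 3 against at most 10 in any other library. On the first principal component, which held 30.9% of the variance, A-Fos(+) replicate 3 lay at 40.8 and the other libraries between −9.9 and −6.2. Correlations of log2 values were no higher within groups (0.798 to 0.841 in A-Fos(+), 0.797 to 0.868 in A-Fos(-)) than between them (0.780 to 0.891), a description over tested peaks. The mitochondrial peak took 90.5 ± 4.72% of all values in A-Fos(+) and 85.0 ± 4.45% in A-Fos(-) libraries (mean ± SD, n = 3), a difference of 5.44 points (exact permutation test, two-sided, p = 0.3, the smallest possible p being 0.1).

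The peaks carried few marks of the labelled cell type. The A-Fos table lists 6339 peaks and the table of the other groups 16610. Of 15 cardiomyocyte marker genes, 2 had a peak in the A-Fos table, against 13 of the same 15 in the table of the other groups. The exceptions were atp2a2a, the calcium pump of the sarcoplasmic reticulum, with a peak 109 bp from its start, and myl7, the cardiac myosin regulatory light chain, whose nearest listed peak lay 4500 bp away. The atp2a2a peak held 85, 81 and 98 in A-Fos(+) and 95, 78 and 129 in A-Fos(-), a log2 change of −0.16 ± 0.25 (SE). The myl7 peak held 17, 20 and 40 against 20, 31 and 30 (−0.12 ± 0.35). Neither pair of groups separated. A gene without a listed peak has no value here, and since the peak thresholds are not stated, its accessibility is not known. Among the short sets of defining markers of other cell types used for this check, 2 of 8 leukocyte markers (lcp1 and irf8), 1 of 10 endothelial markers (klf2a), 1 of 6 erythroid and thrombocyte markers (itga2b) and none of the epicardial, smooth muscle and neural markers had a peak. The longer marker lists described further on hold these and other genes. In the larger table of the other groups, 7 of the 10 endothelial markers and 4 of the 8 epicardial ones had a peak. So did 1 of 5 markers of nerve cells, 2 of 5 of smooth muscle and 2 of 6 of red cells and thrombocytes. For leukocytes, lcp1 and irf8 had a peak in both tables. The lower number in the A-Fos table was therefore not limited to cardiomyocyte markers. The libraries are called A-Fos(+) and A-Fos(-) by their labels, and in such bulk samples fewer cells of a type and less signal per cell cannot be told apart.

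No peak differed between A-Fos(+) and A-Fos(-) at an adjusted p under 0.05 (limma on log2(value + 5), two-sided, Benjamini-Hochberg adjustment): 0 of 6012 tested peaks, or 0%, were higher or lower, and the smallest adjusted p was 1. At an unadjusted p under 0.05, 138 peaks (2.30%) were higher and 62 (1.03%) lower with A-Fos, 200 (3.33%) in all. The smallest unadjusted p was 0.000544. The 3 A-Fos(+) values all exceeded the 3 A-Fos(-) values at 201 peaks (3.34%) and were all below them at 215 (3.58%), so that the groups did not overlap at 416 peaks (6.92%). With the replicate number as a block, limma called 0 peaks, gave 276 higher and 124 lower at an unadjusted p under 0.05, and its smallest adjusted p was 0.306. Without the shallow A-Fos(+) replicate 3, it again called 0, with 168 higher and 46 lower unadjusted and a smallest adjusted p of 0.138. With all libraries scaled to equal nuclear totals, the unadjusted split turned to 26 higher and 376 lower, again with 0 calls, and under that scaling the median log2 change over the 6012 peaks was −0.24 in place of −0.004.

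The data bounded most peaks only loosely. Log2 changes ran from −1.33 to 1.44, with 90% of the peaks between −0.58 and 0.64. The median half-width of their 95% intervals was 0.72, and 3292 peaks (54.8%) had an interval that lay wholly between −1 and 1. At those peaks a change of 1 on this scale in either direction lay outside the interval. At the remaining peaks the interval reached −1, 1 or both, or lay beyond 1 of them. An estimate of at least 1 in size was found at 59 peaks, 31 higher and 28 lower. On the log2(value + 5) scale the change of low peaks is understated, so an interval between −1 and 1 can still hold a 2-fold difference in value there.

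**Figure D1:**
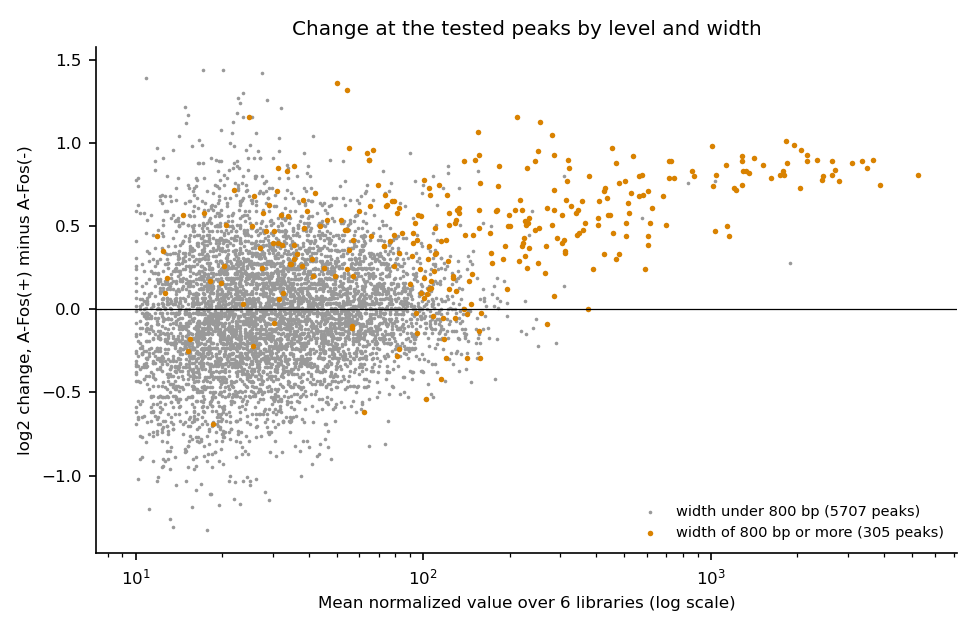
Each point is a tested peak, with its mean normalized value over the 6 libraries on a log axis and its log2 change, A-Fos(+) minus A-Fos(-), on the other. The 5707 narrower peaks scatter around 0, with a median of −0.02, and the 305 peaks of 800 bp or more, in orange, have a median of 0.52.

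The genes of AP-1 itself showed no called change. Of 32 genes encoding AP-1 subunits, 15 had at least 1 tested peak, and 0 of their 17 peaks passed the test in either direction. Their median log2 change was 0.11, against −0.00 over all tested peaks, with 11 changes above and 6 below 0. Under equal totals their median was −0.15, against −0.24 over all tested peaks. The median of the AP-1 peaks was −0.04 without A-Fos(+) replicate 1.

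Among the Jun genes, the proteins A-Fos is designed to bind, the promoter peak of jun (20:15552436-15552932, 27 bp from the start) held 135, 86 and 121 in A-Fos(+) and 107, 84 and 107 in A-Fos(-), a change of 0.17 ± 0.26. The values of the groups interleaved. The promoter peak of junba (1:51734376-51734765) held 95, 36 and 63 against 58, 67 and 77 (−0.14 ± 0.30), the widest spread within A-Fos(+) among the Jun promoters. At junbb, the peak at the start site held 45, 40 and 29 against 42, 31 and 37 (0.04 ± 0.30). The peak 1916 bp away (3:7653992-7654293) held 65, 53 and 84 against 60, 55 and 51 (0.24 ± 0.27). That distal peak was also listed in the other table, where it was 0.83 higher in regenerating gata4:EGFP+ than in uninjured myl7:nucDsRed+ cardiomyocytes (limma, adjusted p = 0.0301). The promoter of jund, the more constant Jun member, held 69, 67 and 58 against 49, 63 and 43 (0.31 ± 0.27). With equal totals the signs of the jun and distal junbb changes turned (−0.09 and −0.02). The median over all tested peaks was then −0.24 in place of −0.004.

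Groups that did not overlap were found at 1 of the 17 AP-1 peaks, the promoter of fosb, against 6.92% of all tested peaks, so the count is near the background. FosB is a partner of Jun proteins induced by stimulation, and its promoter peak (18:36769600-36769736, 90 bp from the start) held 36, 25 and 40 with A-Fos and 23, 21 and 20 without, a change of 0.53 ± 0.33 (limma, unadjusted p = 0.114, adjusted p = 1). A second fosb peak, 941 bp from the start and within the gene, held 47, 29 and 52 against 42, 35 and 36 (0.13 ± 0.30), and there the groups overlapped. The promoter of fosab, the zebrafish c-Fos gene, held 108, 55 and 107 against 87, 87 and 66 (0.11 ± 0.28). A peak inside fosl1a, which encodes a Fra-1 protein, held 83, 33 and 23 against 43, 28 and 23 (0.36 ± 0.38). Its highest value was that of A-Fos(+) replicate 1 alone. The promoter of fosl2, the Fra-2 gene, held 73, 61 and 81 against 59, 53 and 76 (0.19 ± 0.26), and its relative fosl2l had a change of −0.26 ± 0.38.

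Of the further zipper partners, atf3, a stress-induced repressor, held 70, 45 and 49 against 63, 61 and 43 at its promoter (−0.03 ± 0.28). The peaks of atf2, a factor activated by stress kinases, and of atf4a, a factor of the integrated stress response, changed by −0.20 ± 0.31 and −0.36 ± 0.41, the latter being the lowest of the 17 peaks. The atf4b promoter changed by 0.01 ± 0.41. The small Maf genes maff and mafk changed by 0.15 ± 0.39 and −0.09 ± 0.31. All of these groups overlapped.

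**Figure D2:**
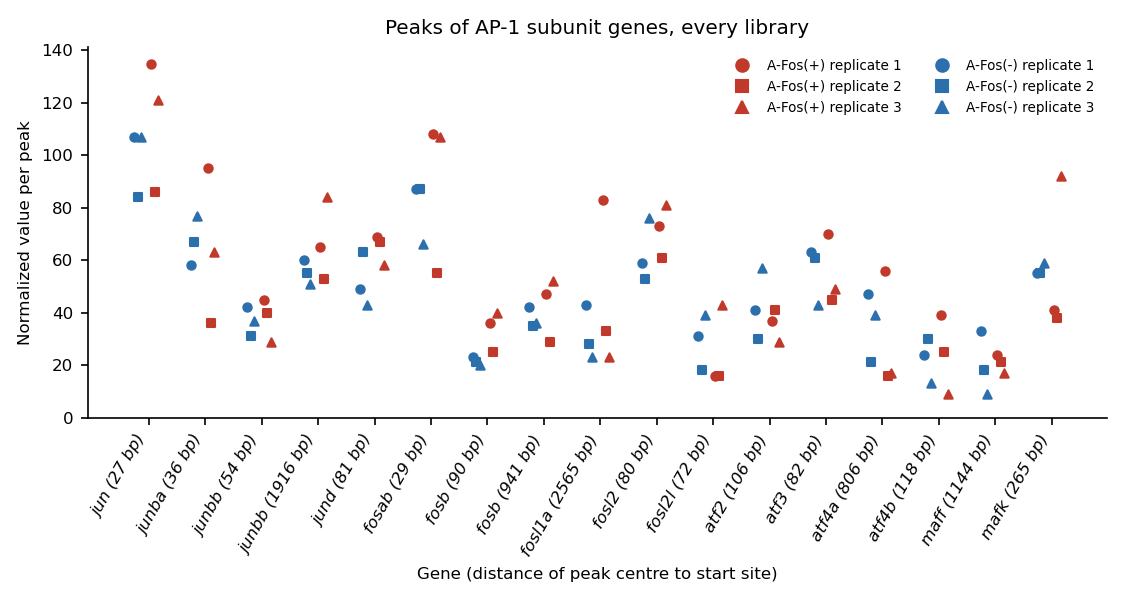
Normalized values of the 17 tested peaks of AP-1 subunit genes, with the distance of each peak's centre from the start site in bp, in A-Fos(+) (red) and A-Fos(-) (blue) libraries, where the symbol shape gives the replicate. The groups overlap at every peak except the fosb promoter, where 36, 25 and 40 lie above 23, 21 and 20.

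Genes that textbooks give as AP-1 targets likewise had 0 called peaks among 13 tested ones. Their median change was 0.17, with 9 peaks above 0 and 4 below. Under equal totals it was −0.09, against −0.24 over all tested peaks. Without A-Fos(+) replicate 1 the median of the list was −0.08. This list shares jun, junbb and fosl1a with the subunits. The peak 397 bp from il11b (19:10432418-10432643), a cytokine of the interleukin-6 family, held 16, 12 and 17 with A-Fos and 29, 24 and 36 without, a change of −0.79 ± 0.34 (limma, unadjusted p = 0.0306, adjusted p = 1). Every A-Fos(+) library lay below every A-Fos(-) library there. At 2 promoters the order was the other way. Over all tested peaks 3.58% separated downward and 3.34% upward, and with 13 peaks such counts say little about the list. That of dusp1, a phosphatase that switches off MAP kinases, held 50, 57 and 61 against 38, 49 and 41 (0.36 ± 0.27). That of mcl1a, an anti-apoptotic Bcl-2 relative, held 95, 105 and 84 against 82, 75 and 74 (0.28 ± 0.24). The heme oxygenase gene hmox1a changed by −0.03 ± 0.34 and the keratin gene krt8 by 0.19 ± 0.35, with overlapping groups.

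Other immediate early and stress genes, which respond to the same stimuli and to the handling of cells, contributed 69 tested peaks of 54 genes, with 0 calls. Their median change was −0.00, with 34 peaks above and 35 below 0. The lowest change was that of ier2b (−0.52). The highest was at the promoter of cebpd, an acute-phase transcription factor, which held 47, 17 and 35 with A-Fos and 15, 17 and 4 without (1.18 ± 0.42, limma, unadjusted p = 0.0104, adjusted p = 1). The second replicates of the groups were equal there. The promoter of hspa5, the chaperone of the endoplasmic reticulum, held 95, 53 and 66 against 94, 92 and 116 (−0.50 ± 0.26), and those groups overlapped by a single library.

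With no called peak, the peaks with a gene are named by the smallest unadjusted p. Eligible were those at or above the median level of 30.3 whose groups did not overlap. Named were 15 of 67 eligible peaks in the higher and 15 of 71 in the lower direction. They were picked for their difference and none is a call; every adjusted p was 1 (limma), and with the replicate block every one was at least 0.306. Because the groups of each had to separate, the separation itself is no result.

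The higher peaks had changes of 0.53 to 1.07. The first was a 2475 bp peak beside csmd2 (19:36675673-36678148, 1888 bp from the start), which encodes a transmembrane protein with complement-type domains. It held 223, 151 and 257 in A-Fos(+) and 141, 93 and 66 in A-Fos(-), a change of 1.07 ± 0.30 (limma, unadjusted p = 0.00172). Next was the promoter of dvl3b, a Dishevelled protein that relays Wnt signals, with 66, 90 and 81 against 47, 53 and 40 (0.70 ± 0.26). The promoter of gnmt, which uses S-adenosylmethionine to methylate glycine, held 70, 73 and 95 against 40, 41 and 60 (0.71 ± 0.27). A peak 2212 bp from rb1cc1, a subunit of the complex that starts autophagy, held 41, 45 and 46 against 23, 29 and 19 (0.79 ± 0.31), the tightest A-Fos(+) values of these 4.

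The start site of cs, citrate synthase of the mitochondrial citric acid cycle, held 93, 119 and 118 against 55, 86 and 83 (0.55 ± 0.26). That of cth, which makes cysteine from cystathionine, held 44, 40 and 61 against 38, 23 and 27 (0.64 ± 0.31). In both genes the lowest A-Fos(+) library lay only slightly above the highest A-Fos(-) library. The peaks of brpf3b, a scaffold of histone acetyltransferases, of vezt, a protein of adherens junctions, and of usp5, a deubiquitinase, had changes of 0.67, 0.53 and 0.65. With equal totals the changes of 12 of the 15 higher peaks were smaller by more than 1.5 times, from 0.27 at vezt to 0.45 at gnmt. That scaling also moved the median over all tested peaks, from −0.004 to −0.24. Leaving out 1 library made the change smaller by more than 1.5 times at 4 of the 15 peaks. Without A-Fos(-) replicate 1 the change was 0.35 at cs, 0.41 at brpf3b and 0.30 at mospd2, and without A-Fos(+) replicate 3 it was 0.35 at usp5. The usp5 peak was the only one of the 15 listed as more accessible in regenerating cardiomyocytes in the other table (0.99, limma, adjusted p = 0.0128). The others were si:dkey-262k9.4, prss16, mospd2, fbxw4, znf236 and ano9a.

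The lower peaks had changes of −0.86 to −0.51. The promoter of pkd2 (1:50538492-50538829), polycystin-2, a calcium-permeable channel, held 29, 14 and 23 with A-Fos and 47, 42 and 39 without, a change of −0.86 ± 0.33 (limma, unadjusted p = 0.0156). The promoter of ing3, a subunit of a histone acetyltransferase complex, held 30, 30 and 32 against 60, 48 and 49 (−0.68 ± 0.29). A peak inside actb2 (3:40528372-40528697), which encodes a cytoplasmic beta-actin, held 27, 32 and 26 against 44, 52 and 47 (−0.66 ± 0.30). The A-Fos(-) values of these 3 genes were all at least 39, and the A-Fos(+) values at most 32. The peak at the start site of actb2 itself did not separate, with 31, 12 and 29 against 28, 21 and 24 (−0.09 ± 0.36).

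The start site of canx, the calcium-binding chaperone calnexin, held 106, 94 and 66 against 130, 117 and 137 (−0.53 ± 0.25). That of slc35b1, a nucleotide transporter of the endoplasmic reticulum, held 56, 53 and 58 against 75, 80 and 93 (−0.53 ± 0.25). A peak in nr1d2a, a clock repressor of the Rev-erb family, held 82, 64 and 58 against 102, 96 and 96 (−0.51 ± 0.25). At each of them, all A-Fos(-) libraries lay above all A-Fos(+) libraries, as the choice of peaks required. The peak of rbm15, an RNA-binding protein, rested on 1 library: it held 77, 74 and 20 against 79, 99 and 94 (−0.81 ± 0.38), and −0.24 without A-Fos(+) replicate 3. Without that library the change was also smaller at canx (−0.34) and aacs (−0.42, from −0.67), and without A-Fos(-) replicate 3 at abca5 (−0.44, from −0.67). With equal totals canx and nr1d2a changed by −0.80 and −0.77, where the median over all tested peaks was −0.24. The remaining peaks were those of fam122b, mycbp2, aacs, abca5, si:zfos-80g12.1, calm1a (a symbol shared by more than 1 gene ID here), ppp2r5eb and camkmt.

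**Figure D3:**
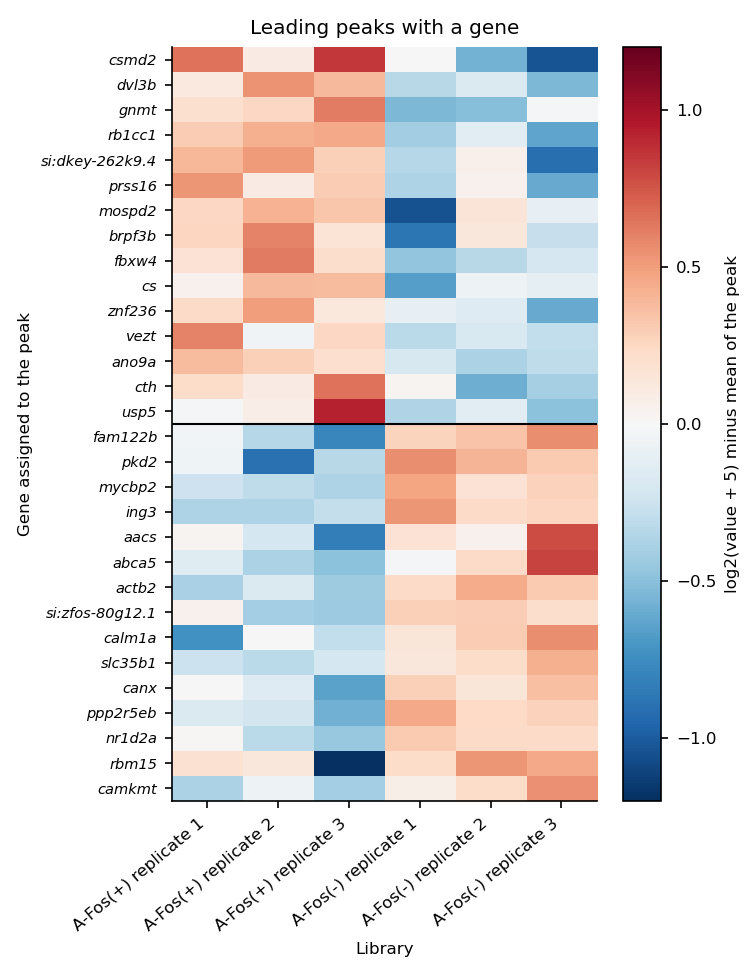
Rows are the 15 higher (above the line) and 15 lower peaks with a gene, columns the 6 libraries, and color gives log2(value + 5) minus the mean of the peak over the libraries. The rows were chosen for groups that do not overlap; rbm15 shows 1 dark A-Fos(+) library, replicate 3.

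Gene groups of heart muscle and regeneration had few peaks and 0 calls each. Contractile genes were nearly missing from the table: thick filament and titin genes had 2 tested peaks of 29 genes, thin filament genes 0 of 27, and genes of the Z-disc and intercalated disc 1 of 45. The cardiac development and regeneration list had 15 tested peaks with a median change of 0.01. Its highest change was in hmga1b, a chromatin architectural protein, with 25, 26 and 26 against 17, 21 and 14 (0.47 ± 0.34), where the groups did not overlap. Its lowest was beside bmp10, a growth factor of the heart, with 19, 15 and 0 against 15, 20 and 26 (−0.90 ± 0.52), where the 0 was in A-Fos(+) replicate 3. The promoter of socs3a, an inhibitor of JAK-STAT signalling, changed by −0.15 ± 0.26.

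Cell cycle genes had 28 tested peaks, a median change of −0.00, 14 changes above and 14 below 0, and no unadjusted p under 0.05. The promoter of wee1, the kinase that holds back entry into mitosis, held 53, 35 and 49 against 22, 33 and 33 (0.56 ± 0.31). The promoter of aurka, a kinase of the mitotic spindle, held 56, 48 and 55 against 67, 70 and 73 (−0.37 ± 0.26). The highest and lowest changes of the list, at mcm7, a subunit of the replicative helicase (0.84 ± 0.47), and plk3, a Polo-like kinase (−0.53 ± 0.40), came with overlapping groups. The wee1 and aurka promoters separated the groups in opposite directions, and limma gave adjusted p = 1 for both.

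Actin protrusion genes, which include those for branching and bundling filaments, had 23 tested peaks with a median of −0.07, 9 above and 14 below 0. The start site of pfn2b, a profilin that delivers actin monomers, held 27, 30 and 32 against 18, 16 and 13 (0.75 ± 0.33, limma, unadjusted p = 0.0345, adjusted p = 1). The promoter of iqgap1, a scaffold at the leading edge, held 14, 14 and 12 against 20, 26 and 16 (−0.47 ± 0.37). A peak in vaspb, which promotes filament growth, held 17, 19 and 0 against 35, 19 and 27 (−1.18 ± 0.52), the lowest change of the list, and it included a 0 in A-Fos(+) replicate 3. Matrix and adhesion genes had 4 tested peaks of 82 genes. Among them the promoter of itgav, the integrin alpha-V chain, held 39, 41 and 46 against 57, 56 and 57 (−0.39 ± 0.27), so that every A-Fos(+) library was lower.

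Metabolic genes stayed close to the background. Oxidative metabolism had 33 tested peaks with a median of −0.00, from −0.91 at atp5fa1, a subunit of ATP synthase with 9, 12 and 9 against 18, 15 and 43, to 0.55 at cs. Glycolysis had 20 with a median of −0.04, from −0.54 at the pyruvate kinase gene pkma to 0.52 at gapdhs. Calcium handling and conduction had 11 with a median of −0.08.

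Markers of leukocytes, the immune cells that enter the wound, had log2 changes below 0 at all of their 8 tested peaks. These belonged to 8 genes of 41 and ranged from −0.83 to −0.13 with a median of −0.35, and limma called 0 of them. The median was −0.11 without A-Fos(+) replicate 3 and −0.12 without A-Fos(-) replicate 1. Their summed values ran from 99 to 161 in A-Fos(+) and from 133 to 247 in A-Fos(-) libraries, so the groups overlapped. The start site of grn1, a granulin gene of myeloid cells, held 23, 12 and 12 against 40, 30 and 24 (−0.83 ± 0.35, limma, unadjusted p = 0.0280, adjusted p = 1). The myeloid regulator irf8 held 10, 12 and 3 against 21, 6 and 10 (−0.36 ± 0.52). Most of the leukocyte marker values were low. Changes below 0 were found at 3041 of all 6012 tested peaks. Of the 1567 tested peaks with a mean of 10 to under 20, 632 changed above 0. The part of leukocyte DNA in the other values was not tested. There were 2 tested peaks for endothelial and endocardial markers, 2 for those of red cells and thrombocytes, 3 for smooth muscle, 1 for epicardium and fibroblasts and 0 for nerve and Schwann cells. The epicardial peak was one in tgfb3, a secreted transforming growth factor, with 47, 50 and 46 against 27, 39 and 33 (0.48 ± 0.29).

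Peaks to which the authors assigned no gene numbered 1958 of the 6012, and they included the smallest unadjusted p-values of the comparison. Of those at or above the median level with groups that did not overlap, the 5 with the smallest p in each direction are given by position. The first was at 16:2271953-2272942, with 107, 76 and 43 against 33, 17 and 26 (1.36 ± 0.33, limma, unadjusted p = 0.000544, adjusted p = 1). At 3:37519440-37521798 the values were 103, 69 and 63 against 15, 46 and 29 (1.32 ± 0.33). The peak at 22:21603089-21603491 held 42, 74 and 58 against 23, 23 and 29 (1.04 ± 0.31). The other higher peaks were at 10:22870755-22873167 (1.13) and 7:45877565-45878361 (0.94).

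Of the 5 lower peaks without a gene, 3 overlapped peaks more accessible in gata4:EGFP+ than in myl7:nucDsRed+ cardiomyocytes in the other table, as did 334 of the 6012 tested peaks. With 5 peaks picked for their p, nothing is read from that count. At 13:46155470-46155855 the A-Fos values were 30, 25 and 20 against 50, 37 and 61 (−0.85 ± 0.31), and the regeneration change was 2.36 (limma, adjusted p = 0.00072). At 21:5809529-5809909 they were 50, 20 and 29 against 63, 75 and 51 (−0.90 ± 0.32), with a regeneration change of 1.37, and at 16:28702002-28702335 they were 20, 26 and 17 against 42, 30 and 49 (−0.79 ± 0.33), with a regeneration change of 1.36. None of the 3 was called in the A-Fos comparison. The remaining 2 were at 7:21751895-21752229 (−0.81), which was less accessible in regeneration, and 5:633341-633665 (−0.74).

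A further comparison asked whether regions more accessible in regeneration differed with A-Fos as a class. In the other table, peaks higher in gata4:EGFP+ than in myl7:nucDsRed+ cardiomyocytes numbered 1818 of 14776 tested (12.3%), and 334 tested A-Fos peaks overlapped one of them. Lower peaks numbered 977 (6.61%) and were overlapped by 374 A-Fos peaks. Those 2 groups were sorted on different reporters, so injury and sorted population cannot be told apart there. The gata4:EGFP+ samples were taken 4 days after cryoinjury from fish aged 4 to 12 months. A class value is the mean log2(value + 5) of its peaks minus that of all tested peaks in the same library, so the scaling of a library moves it little. Over the regeneration-opened peaks it was −0.21, −0.36 and −0.30 in A-Fos(+) and −0.04, −0.27 and −0.29 in A-Fos(-), a difference of −0.09 (exact permutation test, two-sided, p = 0.4, adjusted p = 0.9 over 8 values, smallest possible p 0.1). The highest A-Fos(-) library, replicate 1, stood alone and the rest interleaved, and without it the difference was −0.012, within a range of −0.138 to −0.012 over the libraries left out in turn. Within the class, 138 changes were above and 196 below 0. The groups separated downward at 22 peaks (6.59%, against 3.58% of all tested peaks) and upward at 8 (2.40%, against 3.34%). At an unadjusted p under 0.05 (limma), 5 of the 334 were higher and 4 lower, against 2.30% and 1.03% of all tested peaks. Regeneration-closed peaks had values of 0.37, 0.33 and 0.22 against 0.23, 0.26 and 0.34, a difference of 0.03 (exact permutation p = 0.8).

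Of the few peaks named for the largest regeneration changes, those opened had mostly A-Fos changes below 0 and those closed mostly changes above 0. Both signs occurred on either side, and no peak was called with A-Fos. The whole regeneration-closed class did not share this, with 192 changes above and 182 below 0 and a median of 0.02. In the whole regeneration-opened class, 138 were above and 196 below 0, with a median of −0.05. A peak inside cd63, a tetraspanin of late endosomes, was 3.06 higher in regeneration (limma, adjusted p = 5.14e-05) and held 42, 25 and 40 with A-Fos against 57, 51 and 51 without, a change of −0.54 ± 0.29 (unadjusted p = 0.0793). The peak near anln, the anillin of the cytokinetic ring, was 2.76 higher in regeneration and held 57, 58 and 49 against 72, 70 and 67 (−0.33 ± 0.25). At both, all A-Fos(+) libraries lay below all A-Fos(-) libraries, and neither was called. At tnfb, a tumour necrosis factor gene, the values were 44, 35 and 40 against 68, 48 and 37 (−0.29 ± 0.30). At nfkbiaa, an inhibitor of NF-kappaB, they were 144, 83 and 40 against 129, 77 and 83 (−0.24 ± 0.36). The groups of both overlapped. Beside mtus1b and inside gna11b the changes were −0.18 ± 0.42 and −0.16 ± 0.44. At LOC103909724, which had the largest regeneration increase of these (3.25), the A-Fos change was 0.04 ± 0.45. Of genes with reduced accessibility in regeneration, mif4gdb held 87, 100 and 92 against 74, 108 and 83 (0.08 ± 0.25), scp2a, a sterol carrier, changed by 0.42 ± 0.35, and rplp1, of the ribosomal stalk, by 0.36 ± 0.31. The peaks of si:dkey-16p6.1, si:dkey-237g15.2 and si:ch211-266c8.1 changed by 0.74 ± 0.51, 0.70 ± 0.52 and 0.39 ± 0.48, with overlapping groups. All lay on chromosome 4, and at each of them replicate 2 held the highest value of either group. Of the 214 tested peaks of chromosome 4, both second replicates lay above all other libraries at 14, against 8.47% of all tested peaks. Changes below 0 were found at si:dkey-93m18.4 (−0.80 ± 0.90), which had the largest regeneration decrease of these (−3.48) and A-Fos(-) values of 72, 0 and 37, and at ttbk1b, with 13, 12 and 12 against 22, 16 and 19 (−0.46 ± 0.38), where the groups did not overlap.

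Regions that differed with overexpressed Jun proteins were compared in the same way. Peaks called higher in both junba and junbb overexpression than in uninjured myl7:nucDsRed+ cardiomyocytes (1097, 7.42%) were overlapped by 439 tested A-Fos peaks, whose class value differed by −0.05 (exact permutation p = 0.7). Peaks called lower in both (1737, 11.8%) were overlapped by 184, with class values of 0.67, 0.35 and 0.60 in A-Fos(+) and 0.52, 0.09 and 0.20 in A-Fos(-), a difference of 0.27 (exact permutation p = 0.2, adjusted p = 0.9 over the 8 values). The difference was 0.391 without A-Fos(-) replicate 1, where the remaining libraries no longer overlapped, and 0.173 without A-Fos(-) replicate 2. Within the class 128 changes were above and 56 below 0, with a median of 0.31. At an unadjusted p under 0.05 (limma), 23 of the 184 were higher and 1 lower, against 2.30% and 1.03% of all tested peaks. The groups separated upward at 17 peaks (9.24%, against 3.34% of all tested peaks) and downward at 2 (1.09%, against 3.58%). Of the peaks of this class, 23.9% of its peaks were 800 bp or wider, against 5.07% of all tested peaks. The junba and junbb samples were taken 7 days after induction. Their libraries were made from 50000 cells isolated without sorting and the uninjured ones from 5000 sorted cells, so overexpression and preparation cannot be told apart in these classes.

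Class values by position relative to genes differed little between the groups. The 3100 peaks within 500 bp of a start site had class values of 0.03, 0.13 and 0.07 against −0.06, 0.16 and 0.14, a difference of −0.00 (exact permutation p = 0.9). For the 954 peaks farther from their assigned gene the difference was −0.02 (p = 0.5 by the exact permutation test), and for the 1958 without a gene it was 0.02 (exact permutation p = 0.9). By limma, an unadjusted p under 0.05 with a higher value was found at 89 of the 1958 peaks without a gene. Near a start site it was found at 33 of the 3100, against 2.30% of all tested peaks. With a lower value it was found at 34 and 18, against 1.03% of all tested peaks. The groups separated upward at 4.6% of the peaks without a gene and 2.6% of those near a start site, against 3.34% of all peaks. They separated downward at 4.2% and 3.3%, against 3.58%. Of the peaks without a gene, 268 were 800 bp or wider, with a median change of 0.56. These 268 held 50 of the 89 higher peaks, 0 of the 34 lower ones and 52 of the 91 that separated upward. The 642 peaks that overlapped no tested peak of the other table had a median change of −0.17, 214 above and 428 below 0. Of these peaks, 9.35% lay near a start site, against 51.6% of all tested peaks. Only 0.31% of them were 800 bp or wider, against 5.07% of all tested peaks.

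**Figure D4:**
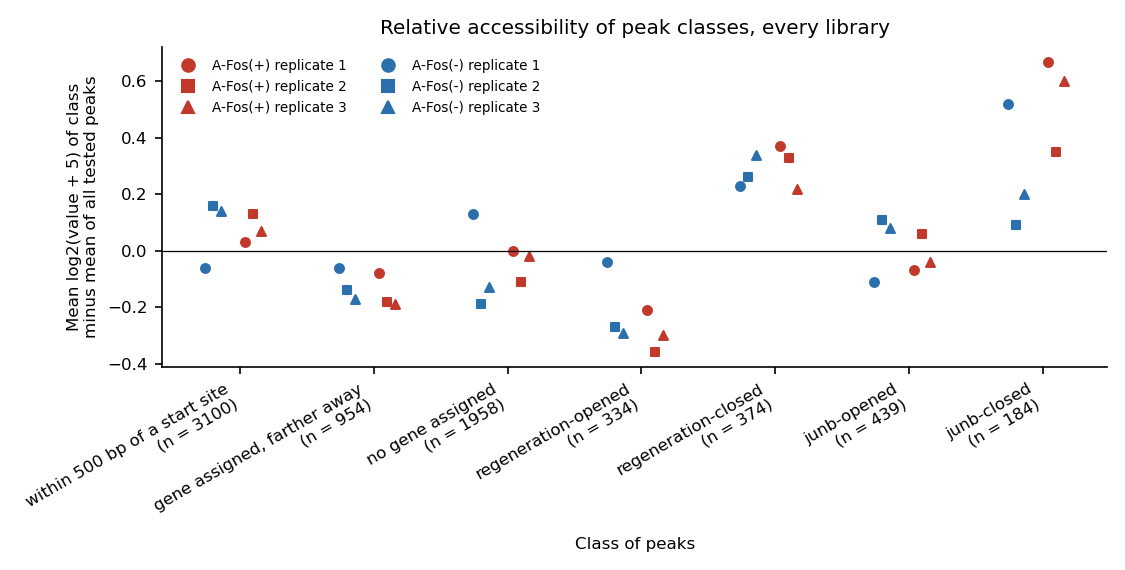
Class values, the mean log2(value + 5) of the peaks of a class minus that of all tested peaks in the same library, for 3 position classes and 4 classes of overlap with the other table, in A-Fos(+) (red) and A-Fos(-) (blue) libraries. The groups overlap in all 7 classes; the largest difference is 0.27, at the junb-closed peaks.

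Very wide peaks had higher values with A-Fos than without at most of their members. The width of 800 bp was chosen after the values were seen, so the following is a description with no test. The 305 tested peaks of at least 800 bp, up to 24917 bp, were mostly without a gene (268) and had a median change of 0.52, with 278 of them above 0. The groups separated upward at 56 of them (18.4%, against 3.34% of all tested peaks) and downward at 2. They made up 53 of the 138 peaks with an unadjusted p under 0.05 and a higher value with A-Fos, and 0 of the 62 lower ones. Of the 80 peaks of at least 4000 bp, 32 separated upward and 0 downward, with a median of 0.78. The median value per 100 bp was 7.22 in wide peaks, 10.97 in those of at least 4000 bp and 11.4 in peaks narrower than 800 bp.

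Single wide peaks show the size of this difference. A 21521 bp peak at 14:20091634-20113155 held 8546, 6790 and 4666 in A-Fos(+) and 4966, 2449 and 4095 in A-Fos(-) (0.81 ± 0.51). A 22094 bp peak at 2:19456554-19478648 held 4991, 4666 and 3703 against 2852, 1666 and 3066 (0.85 ± 0.47). The groups overlapped at the first of these and separated at the second. After quantile normalization, which makes the distributions of the libraries equal, these 2 changes were 0.00 and 0.05, and the 5 wide peaks of highest level changed by −0.04 to 0.11. That step gives peaks at the top ranks of every library nearly equal values, so these small changes largely follow from it. Wide peaks took 46.7%, 40.8% and 39.9% of the nuclear values of the A-Fos(+) libraries and 36.2%, 24.6% and 32.5% of those of the A-Fos(-) libraries, 42.4 ± 3.69% against 31.1 ± 5.90% (mean ± SD, n = 3), and every A-Fos(+) library lay above every A-Fos(-) library. The class value of the wide peaks was 0.49 higher with A-Fos, 0.336 to 0.613 when 1 library was left out (lowest without A-Fos(-) replicate 2), and 0.20 after quantile normalization.

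Among peaks of high level, the difference was seen mostly in the wide ones. Peaks with a mean of 160 or more had a median change of 0.58, but the 37 of them that were narrower than 800 bp had a median of 0.05. Wide peaks within 500 bp of a start site numbered 16, with a median change of 0.11 and a median width of 868.5 bp. The median width of all wide peaks was 2383 bp, and 268 of the 305 had no gene. These bins therefore do not tell width and the lack of a gene apart. Nearly all wide peaks (303 of 305) overlapped a tested peak of the other table, as did 5370 of all 6012 tested peaks. An overlap of 1 bp was enough, which a wide peak meets more easily. The count therefore does not show whether the other libraries had wide peaks there. The parts of mitochondrial signal, of depth and of the background correction in this difference were not tested. Without the wide peaks, limma called 0 of 5707 peaks, with 90 higher and 65 lower at an unadjusted p under 0.05.

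**Figure D5:**
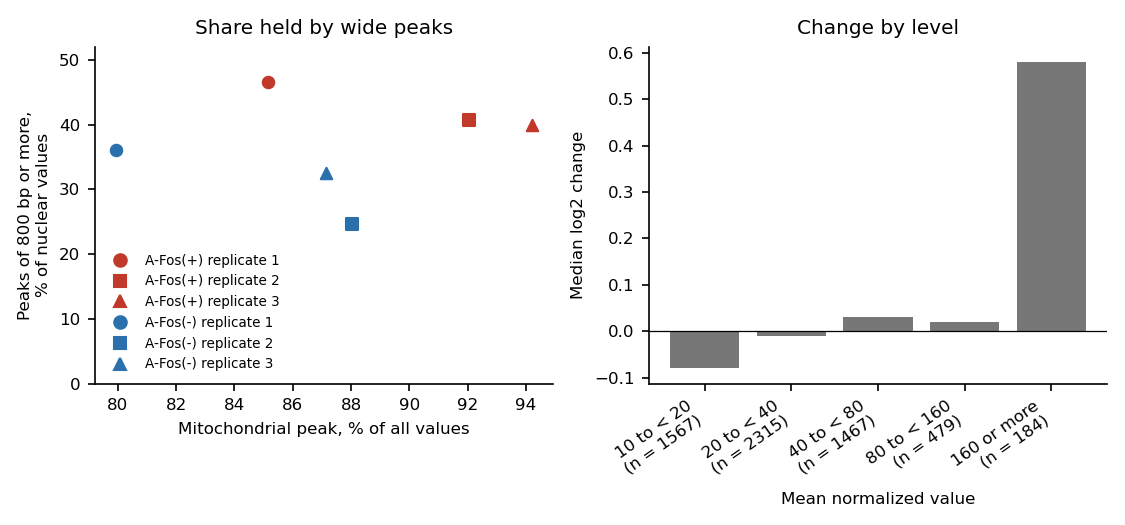
Left, the share of nuclear values in peaks of 800 bp or more against the share of all values in the mitochondrial peak, 1 point per library; the A-Fos(+) libraries lie between 39.9% and 46.7% and the A-Fos(-) libraries between 24.6% and 36.2%. Right, the median log2 change of tested peaks in 5 bins of mean normalized value, with the number of peaks in each; the highest bin stands at 0.58 and the others between −0.08 and 0.03.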

How the data were processed

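The series has 2 tables, one with the 6 A-Fos libraries and one with the 8 others. Per the submitters' processing notes, the tools were MACS2, DESeq, DESeq2 1.18.1, deepTools 2.5.7, STAR 2.6.1d, Trimmomatic 0.36 and Picard 2.18.16, and the builds GRCz11 and danRer11. Mapping filters, transposase shift, peak thresholds and the background correction are not given in the sources used here. The deposited values are a score: background-corrected reads per peak that the authors divided by size factors and rounded, each table by itself, so no count model was fitted as the main test. The fraction of a peak inside its assigned gene and the unsigned distance to its start site are the authors' annotation, per the file headers; coordinates are printed as deposited, and whether they count from 0 or 1 is not stated.

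Log2(value + 5) of nuclear peaks with a mean of 10 or more was fitted in R 4.3.3 by limma 3.58.1, 3 libraries against 3, with trend and robust moderation. Tests were two-sided, and a call needs an adjusted p under 0.05 (Benjamini-Hochberg). All ± beside log2 changes are SE. Classes of peaks were compared per library by exact permutation. The other table was fitted with all its 4 groups, and peaks overlapping by 1 bp were matched with GenomicRanges 1.54.1. Reads per library were estimated from the spacing of values, so they are approximate. The steps were checked on simulated data. Python 3.11.15, NumPy 2.4.6, SciPy 1.17.1, pandas 2.3.3 and Matplotlib 3.10.9 were used. Of the 4054 tested peaks with a gene ID, 3818 have a symbol in the file, and 7 peaks of listed genes were named through a reference table of IDs.

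The members, the 19 gene lists and the naming rule (15 peaks with a gene per direction, at or above the median level with groups that do not overlap, taken by smallest p because none was called, 5 without a gene, AP-1 subunits, and the extremes of lists, which were picked after their values were seen) were chosen with earlier results of these data known. Alternatives were the replicate block, pseudocounts of 1 and 20, a mean of at least 30 or no filter, 3 other scalings, library weights, plain moderation, voom on estimated reads, no wide peaks, and leaving out each library.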

Additional observations from a re-analysis of the deposited data

How the results depend on the processing

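No peak was called under any alternative run: the replicate block, both other pseudocounts, both other filters, the 3 scalings, library weights, plain moderation, voom on estimated reads, leaving out wide peaks (the last 2 chosen after seeing the data) and leaving out each library. Counts at an unadjusted p under 0.05 moved: against 138 higher and 62 lower, limma gave 276 and 124 with the replicate block, 214 and 60 with library weights, 26 and 376 with equal totals, 87 and 22 at a mean of at least 30, and voom 163 and 39. Leaving out 1 library gave 88 to 204 higher and 33 to 140 lower. The lower count reached 137 and 140 without A-Fos(+) replicate 1 or 2, and without A-Fos(-) replicate 3 the counts were 88 and 33. The cause was not tested. Same-numbered libraries deviated together with correlations of 0.280, 0.256 and 0.082, each above every crossed pair (−0.242 to 0.031). The deviations were taken from the mean of each group and cancel out within it, so this contrast is partly fixed by that step. Estimated reads also fell from replicate 1 to replicate 3 in both groups, and the part of depth was not tested. The labels do not say what the replicate numbers share, and the block ended or added no call. The 7 class differences moved by less than 1 SD of replicates under each alternative run, but by more than 1.5 times in some, with junb-closed peaks at 0.173 to 0.391 and regeneration-opened ones at −0.138 to −0.012 when 1 library was left out. The mitochondrial difference ranged from 2.88 to 8.09 points when 1 library was left out. After quantile normalization the 5 wide peaks of highest level changed by −0.04 to 0.11, which that step largely fixes for peaks at the top ranks. No motif classes were run, as no genome was used here. The shallowest library held 129387 estimated reads, and the part of depth in the width of the intervals was not tested.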

Other observations

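A promoter peak set the second replicates of both groups apart from the other libraries and did not separate the groups. The 2639 bp peak at ubb (5:42091343-42093982, centre 436 bp from the start), a polyubiquitin gene, held 785, 2830 and 491 in A-Fos(+) and 402, 1887 and 567 in A-Fos(-) replicates 1, 2 and 3, a change of 0.44 ± 0.69. Both second replicates therefore stood far above the 4 other libraries. Among peaks with a mean of at least 50, chosen after the values were seen, the next ones by the same measure were far less apart: hdhd3, a phosphatase-like protein, held 62, 130 and 63 against 67, 120 and 67, and synrg, a protein of the clathrin adaptor pathway, held 48, 105 and 35 against 48, 80 and 44. Over all tested peaks, both first replicates lay above the other 4 libraries at 547 peaks (9.10%), both second at 509 (8.47%) and both replicates numbered 3 at 470 (7.82%). Pairs of libraries with unlike numbers were not counted in this way, so nothing is read from these shares.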
